A study of Rattus norvegicus with 20 samples.

Results

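The genes described are the nuclear-encoded subunits of the mitochondrial respiratory chain and ATP synthase, measured in INS-1, an insulin-secreting line from a rat insulinoma that serves as a beta-cell model. They were chosen by symbol, as all genes of the array's annotation that begin with Ndufa, Ndufb, Ndufc, Ndufs, Ndufv, Sdha, Sdhb, Sdhc, Sdhd, Uqcr, Cox4i, Cox5, Cox6, Cox7, Cox8 or Atp5, without the Ndufaf assembly factors. With probe sets of exactly 1 symbol, this gave 94 of the 18166 genes measured. Another 11 fitting symbols were carried only by probe sets with several symbols and were left out. Among them were Ndufa3, Ndufa10, Atp5f1c, Atp5mc2 and Cox7a2, so the counts by complex do not cover every subunit. Of the 94, 66 are canonical subunits, with 33 in complex I, 4 in complex II, 7 in complex III, 9 in complex IV and 13 in complex V. Complexes were assigned by symbol, so Ndufa4, known to belong with cytochrome c oxidase (complex IV), is counted in complex I. The other members are 16 copies or pseudogenes, 7 alternative isoforms, 3 complex II assembly factors whose symbols share the Sdha prefix, the ATP synthase inhibitor Atp5if1 and the supercomplex factor Cox7a2l.

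The data are 20 arrays of the Affymetrix Rat Gene 2.0 type, with 5 in each of 4 groups that the sample titles name. INS-1 cells of all groups came from 5 clones kept apart over 10 passages, and RNA was taken 10 h after the challenge. The titles C4BP, IAPP, C4BPD and DMSO were matched to the 4 treatments of the labels. These are monomeric islet amyloid polypeptide (IAPP, the peptide of islet amyloid) given with C4BP, a complement inhibitor of blood plasma, then IAPP without C4BP, C4BP without IAPP, and 1% DMSO, the solvent of IAPP. IAPP and C4BP were each dosed at 300 ug/ml per the sample fields, and the series text gives the doses in molar units, as 77 uM IAPP and 0.6 uM C4BP. The titles do not spell out C4BP and C4BPD, so reading C4BP as both proteins and C4BPD as C4BP alone is only the likely reading. The separate treatment field fits the title in 3 of the 20 arrays, and grouping by it left no gene past the threshold. The titles also carry a running number, in which the arrays of 1 replicate number follow each other. The labels do not say whether equal replicate numbers mark 1 clone or what else they stand for. The p-values therefore measure the spread between these arrays, which may be technical.

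Complexes I and II pass electrons from NADH and succinate to ubiquinone, complex III passes them to cytochrome c, and complex IV passes them to oxygen. The proton gradient made by complexes I, III and IV drives ATP synthesis by complex V. In beta cells, ATP made this way closes potassium channels and couples glucose metabolism to insulin release. Complex II is also an enzyme of the tricarboxylic acid cycle, and its assembly requires dedicated factors that attach the flavin and insert the iron-sulfur clusters.

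Values are intensities as deposited, and differences are on the log2 scale, first group minus second. They come from 1 limma model of all 20 arrays with two-sided tests and Benjamini-Hochberg adjustment over the 18166 genes, at a threshold of 0.05. The median intensity of an array lay between 171 and 183. All 7 measured beta-cell markers lay above the median of all probe sets, against 3 of 11 markers of other islet, acinar and duct cells and 1 of 8 fibroblast, macrophage and endothelial markers. Summed beta-cell marker intensity ran from 36917 to 40806 in C4BP, 37653 to 40272 in IAPP, 39618 to 43826 in C4BPD and 40374 to 43793 in DMSO. For the other islet, acinar and duct markers, most of whose signal came from glucagon (Gcg), the sum ran from 11080 to 11540 in C4BP, 10353 to 10886 in IAPP, 11233 to 11508 in C4BPD and 11265 to 11863 in DMSO. For the fibroblast, macrophage and endothelial markers it ran from 847 to 1028 in C4BP, 864 to 938 in IAPP, 851 to 895 in C4BPD and 866 to 919 in DMSO. Single beta-cell markers that passed were Mafa, at -0.25 in C4BP against DMSO and -0.26 in IAPP against DMSO, Slc2a2, at -0.14 and -0.11 in the same comparisons and -0.12 in C4BP against C4BPD, and Slc30a8, at -0.17 in C4BP against DMSO. Gcg passed at -0.13 in IAPP against DMSO. The IAPP sums of the beta-cell list and of the other islet list lay below every DMSO sum, and the part of these shifts in the results was not tested.

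None of the 66 canonical subunits passed the test in any comparison of this model. With an intensity-dependent prior, and also with a replicate block, Ndufv1 passed in IAPP against DMSO and Atp5mc1 in C4BP against C4BPD. The complex II assembly factors Sdhaf1 and Sdhaf3 were higher in IAPP than in DMSO, in C4BP than in DMSO and in C4BP than in C4BPD. In IAPP against DMSO, 2 of the 94 genes passed, both higher, where 3.38% of all genes passed and 1.41% passed as higher. In C4BP against DMSO the same 2 genes passed, against 5.96% of all genes, with 2.72% higher. In C4BP against C4BPD it was again these 2, against 2.37% of all genes, 0.754% higher. In C4BPD against DMSO 0 of the 94 genes passed by limma, against 1.93% of all genes, and 3 had an unadjusted p under 0.05, against 12.2%. In C4BP against IAPP the count was also 0 by limma, against 0.606% of all genes, with 2 at an unadjusted p under 0.05, against 7.93%. Unadjusted p-values under 0.05 were found for 8 members in IAPP against DMSO, 5 in C4BP against DMSO and 4 in C4BP against C4BPD, where the shares of all genes were 12.3%, 16.2% and 13.7%. Testing all 4 groups at once by limma's F statistic also called 2 members, Sdhaf1 and Sdhaf3, against 7.85% of all genes. In bulk RNA, fewer cells of a type and less RNA per cell cannot be told apart. These comparisons share arrays, so the return of the same 2 genes is not independent evidence.

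**Figure D1:**
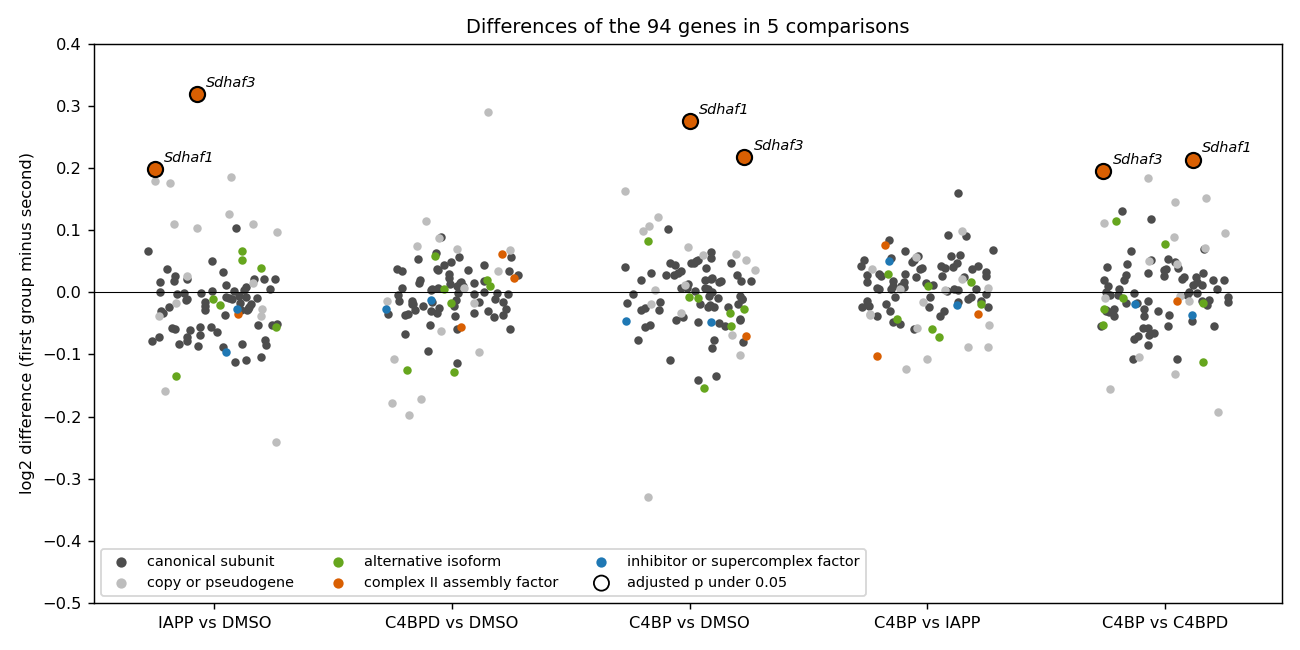
Each point is 1 of the 94 genes, placed by its log2 difference (vertical axis) in 5 comparisons (horizontal axis) and coloured by role, with a black ring where the adjusted p was under 0.05. Sdhaf1 and Sdhaf3 are the ringed points, between 0.19 and 0.32, while all canonical subunits lie between -0.14 and 0.16.

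Sdhaf1 encodes a small LYR-motif protein that, in human cells and yeast, helps the iron-sulfur subunit of complex II to mature. Its intensities were 3245, 3284, 3177, 3566 and 3430.4 in C4BP and 3008, 3079, 3154, 3391 and 3201 in IAPP. They were 2705, 2705, 3101, 2928 and 2969.7 in C4BPD and 2657, 2776, 3019, 2731 and 2622 in DMSO. All C4BP arrays lay above all C4BPD and all DMSO arrays, where 3.73% and 6.13% of all genes had no overlap in these comparisons, and the IAPP arrays overlapped DMSO only through the third DMSO array, which lay just above the first IAPP array.

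Sdhaf1 averaged 3340.4 ± 157 in C4BP, 3167 ± 146 in IAPP, 2882 ± 174 in C4BPD and 2761 ± 156 in DMSO (SD, n = 5 each). In C4BP it was higher than in DMSO by 0.28 (95% interval 0.17 to 0.38, limma adjusted p = 0.00117). In IAPP it was higher than in DMSO by 0.20 (0.09 to 0.30, limma adjusted p = 0.0284). That call was lost when any one of IAPP replicates 3, 4 or 5 or DMSO replicates 1, 2, 4 or 5 was left out, with limma adjusted p-values of 0.0544 to 0.0964. In C4BP it was higher than in C4BPD by 0.21 (0.11 to 0.32, limma adjusted p = 0.0203), and leaving out C4BP replicate 4 or 5 or C4BPD replicate 1 or 2 gave limma adjusted p-values of 0.0543 to 0.07. Fitting the compared groups alone also ended both calls, with limma adjusted p-values of 0.0574 in IAPP against DMSO and 0.0902 in C4BP against C4BPD. C4BPD differed from DMSO by 0.06 (limma adjusted p = 0.695) and C4BP from IAPP by 0.08 (limma adjusted p = 0.838).

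Sdhaf3 encodes another LYR-motif factor, known from yeast, flies and human cells to act on the same iron-sulfur subunit. Its intensities were 871, 845, 859, 893 and 773 in C4BP and 925, 963, 876, 913 and 871 in IAPP. They were 679.7, 780.4, 749.5, 719 and 777 in C4BPD and 706, 692, 762, 735 and 749 in DMSO. All arrays of C4BP and of IAPP lay above all DMSO arrays, where 6.13% and 4.83% of all genes had no overlap in these comparisons. The fifth C4BP array lay below the second and the fifth C4BPD arrays.

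Sdhaf3 averaged 848 ± 45.7 in C4BP, 909.6 ± 37.9 in IAPP, 741 ± 42.3 in C4BPD and 729 ± 29.3 in DMSO (SD, n = 5 each). IAPP exceeded DMSO by 0.32 (95% interval 0.22 to 0.42, limma adjusted p = 0.00035), and this call remained when each array was left out in turn. C4BP exceeded DMSO by 0.22 (0.12 to 0.32, limma adjusted p = 0.00661). This call remained with single arrays left out but was lost without replicate 4 of every group (limma adjusted p = 0.0717). C4BP exceeded C4BPD by 0.19 (0.10 to 0.29, limma adjusted p = 0.0292). The last call was lost without C4BP replicate 1, 2, 3 or 4 or C4BPD replicate 1, 3 or 4, with limma adjusted p-values of 0.053 to 0.0883. It was also lost with arrays centred on their medians (limma adjusted p = 0.0622) and with the compared groups alone (limma adjusted p = 0.145). C4BPD differed from DMSO by 0.02 (limma adjusted p = 0.912). C4BP lay below IAPP, with a log2 difference of -0.10 (unadjusted p = 0.0455 and adjusted p = 0.614 by limma) that did not pass.

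Whether the difference between C4BP and C4BPD departed from that between IAPP and DMSO was tested as an interaction, the first difference less the second. It passed for 0 of the 94 genes by limma, against 0.0495% of all genes, and 1 member had an unadjusted p under 0.05, against 3.79% of all genes. The interaction was 0.02 for Sdhaf1 (95% interval -0.13 to 0.16) and -0.12 for Sdhaf3 (-0.27 to 0.02), both with a limma adjusted p of 1.

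The promoters of Sdhaf1 and Sdhaf3 are shown because these are the 2 members that passed the test. Both sequences are the 250 bases before the transcription start in RefSeq, build GRCr8, given 5′ to 3′ on the gene's strand, for Sdhaf1 chr1:94704612-94704861 on the minus strand and for Sdhaf3 chr4:36066713-36066962 on the plus strand. Capitals mark matches to CCGGAAG, a core bound by ETS factors such as GABPA, and to the NRF1 site, both regulators known for respiratory chain genes.
Sdhaf1: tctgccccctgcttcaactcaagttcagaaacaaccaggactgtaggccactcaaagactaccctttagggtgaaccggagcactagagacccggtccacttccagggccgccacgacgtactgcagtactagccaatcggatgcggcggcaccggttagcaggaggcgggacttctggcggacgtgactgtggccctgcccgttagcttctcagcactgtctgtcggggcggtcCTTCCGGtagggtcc
Sdhaf3: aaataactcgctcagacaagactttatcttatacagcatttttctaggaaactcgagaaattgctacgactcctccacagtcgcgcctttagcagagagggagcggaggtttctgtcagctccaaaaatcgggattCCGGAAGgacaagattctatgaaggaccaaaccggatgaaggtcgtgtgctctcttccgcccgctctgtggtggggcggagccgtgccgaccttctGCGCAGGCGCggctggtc

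The Sdhaf1 window held the ETS core once, on the opposite strand as CTTCCGG, with its first base at position -15 from the start. The Sdhaf3 window held it once on the gene's strand, at -114, and an NRF1 match at -18. Neither window held the letters TGACNNNGC (antioxidant response element), TGATGNAA (ATF4 composite element) or TGANTCA (AP-1) on either strand. Of the 27457 promoters of the RefSeq table, cut to the same window, 7.74% held the ETS core and 4.17% the NRF1 letters, both strands counted. Among the 18999 protein-coding promoters these shares were 9.52% and 5.44%. Of the 59 canonical subunits with a promoter in that table, 18 (30.5%) held the ETS core and 10 (16.9%) the NRF1 letters. Promoters with these motifs thus included those of subunits that did not pass the test, such as Sdha, Sdhb, Sdhd and Atp5po. The assembly factor Sdhaf2, which did not pass either, held the ETS core at -223 and -51 and an antioxidant response element match at -96. For the other motifs the shares of subunit promoters against all promoters were 13.6% against 10.2% (antioxidant response element), 0% against 3.27% (ATF4) and 6.78% against 6.36% (AP-1). A match describes letters in the window only.

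Complex II itself, the succinate dehydrogenase that these factors serve, had no subunit past the threshold. Sdhaf2, which in yeast and human cells is needed to attach the flavin to the catalytic subunit, averaged 2563 ± 171 in C4BP, 2623 ± 128 in IAPP, 2591 ± 204 in C4BPD and 2689 ± 161 in DMSO (SD, n = 5 each). Its differences were -0.04 in IAPP against DMSO and -0.07 in C4BP against DMSO, with limma adjusted p-values of 0.936 and 0.681. Sdhaf2, Sdhc and Sdhd were named to complete the complex, after their values were seen.

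Sdha, the flavin-bearing catalytic subunit, had intensities of 2725, 2796, 2904, 2849.8 and 2714 in C4BP and 2761, 2860.3, 2819, 2715 and 2863 in IAPP. It had 2723, 2935, 3137, 2696 and 2778 in C4BPD and 2820.1, 2983, 2997, 2833 and 2913 in DMSO. The 4 groups overlapped, with differences from DMSO of -0.06 in C4BP, -0.05 in IAPP and -0.03 in C4BPD. Sdhb, the iron-sulfur subunit on which Sdhaf1 and Sdhaf3 act, averaged 2876 ± 119 in C4BP, 2904 ± 156 in IAPP, 2891 ± 118 in C4BPD and 2855 ± 224 in DMSO (SD, n = 5 each). Its difference from DMSO was 0.01 in C4BP (95% interval -0.10 to 0.12) and 0.03 in IAPP (-0.08 to 0.14). The membrane anchors Sdhc and Sdhd differed from DMSO by 0.02 and -0.05 in C4BP and by -0.01 and -0.08 in IAPP. All 4 complex II subunits had 95% intervals within 1.2-fold in all 5 comparisons.

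**Figure D2:**
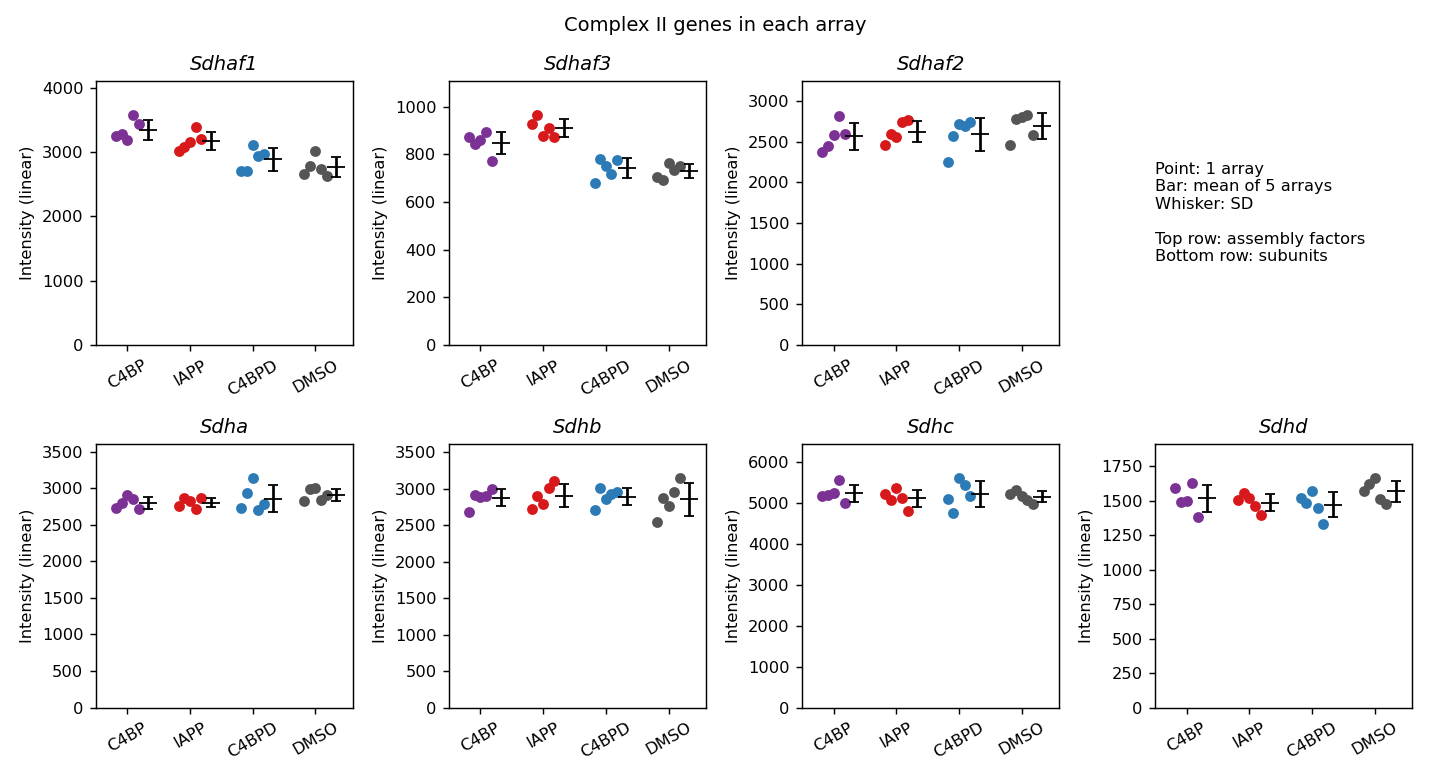
Linear intensity (vertical axes, starting at 0) of the 3 complex II assembly factors and 4 complex II subunits in each array, by group (horizontal axes), with the mean of 5 arrays and its SD beside the points. Mean Sdhaf1 and Sdhaf3 are higher in C4BP and IAPP than in C4BPD and DMSO, with some overlap of single arrays. In the other 5 genes none of the 5 comparisons passed the test.

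In complex I, the NADH dehydrogenase, 0 of 33 canonical subunits passed in any of the 5 comparisons by limma. There were 3 with an unadjusted p under 0.05 in IAPP against DMSO and 0 in each of the other 4 comparisons. Ndufv1, which carries the FMN that accepts electrons from NADH, had intensities of 4639, 4639, 4649, 4619 and 4484 in C4BP and 4407, 4421, 4395, 4394 and 4496 in IAPP. It had 4807, 4678, 4689, 4606 and 4530.3 in C4BPD and 4799.7, 4656, 4802, 4615 and 4612 in DMSO. All IAPP arrays lay below all DMSO arrays, and IAPP overlapped C4BP only through the fifth array of each.

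The Ndufv1 difference between IAPP and DMSO was -0.09 (95% interval -0.15 to -0.03, unadjusted p = 0.00781 and adjusted p = 0.144 by limma), a fold of 0.942, and did not pass. With an intensity-dependent prior its limma adjusted p was 0.0424, and with a replicate block it was 0.0489. Ndufv1 was the only canonical subunit of the 66 whose IAPP and DMSO arrays did not overlap, where 4.83% of all genes had no overlap. Ndufs1, the largest iron-sulfur subunit of the NADH-oxidizing arm, averaged 1854 ± 78.6 in C4BP, 1802 ± 62.0 in IAPP, 1875 ± 61.4 in C4BPD and 1879 ± 74.4 in DMSO (SD, n = 5 each). It differed by -0.06 in IAPP against DMSO (limma adjusted p = 0.649). Ndufv3, an accessory subunit of the same arm named after its values were seen, had a positive difference of 0.10 (unadjusted p = 0.0177 and adjusted p = 0.237 by limma).

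Ndufb3, an accessory subunit of the membrane arm, had the widest interval of the 66 subunits in IAPP against DMSO. Its lowest, median and highest intensities were 581, 651 and 915 in C4BP, 540.5, 634 and 797 in IAPP, 597, 747 and 774 in C4BPD and 588, 705 and 747 in DMSO. The groups overlapped, and the difference between IAPP and DMSO was -0.11 (95% interval -0.36 to 0.14). Ndufa4, named as a complex I gene but known to belong with cytochrome c oxidase, averaged 6781 ± 469 in C4BP, 6881 ± 283 in IAPP, 7035 ± 316 in C4BPD and 6802 ± 309.9 in DMSO (SD, n = 5 each). Its hypoxia-induced paralogue Ndufa4l2 averaged 194 ± 8.50 in C4BP, 200.3 ± 19.8 in IAPP, 209.9 ± 16.8 in C4BPD and 201 ± 10.5 in DMSO. Neither paralogue passed in any comparison.

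In complex III, the cytochrome bc1 complex, 0 of 7 canonical subunits passed by limma, and 0 had an unadjusted p under 0.05 in any of the 5 comparisons. Uqcrfs1, the Rieske iron-sulfur protein, had lowest, median and highest intensities of 959, 1146 and 1364 in C4BP, 1060.0, 1163 and 1303 in IAPP, 1136, 1169 and 1463 in C4BPD and 1130.1, 1249 and 1400.3 in DMSO. The groups overlapped, and its difference of -0.14 in C4BP against DMSO (95% interval -0.35 to 0.06, limma adjusted p = 0.571) was the most negative among canonical subunits in that comparison. Uqcrc1, a core subunit, averaged 2223 ± 176 in C4BP, 2162 ± 82.5 in IAPP, 2150.2 ± 184 in C4BPD and 2172 ± 191 in DMSO (SD, n = 5 each). Its differences from DMSO were 0.03 in C4BP, -0.00 in IAPP and -0.01 in C4BPD.

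In complex IV, cytochrome c oxidase, 0 of 9 canonical nuclear-encoded subunits passed by limma, and 0 had an unadjusted p under 0.05 in any of the 5 comparisons. All 9 had 95% intervals within 1.2-fold in all 5. Isoforms were measured on separate probe sets, whose levels are not set against each other. Cox4i1, the ubiquitous form of subunit IV, averaged 3937 ± 201 in C4BP, 3795 ± 132 in IAPP, 3761 ± 229 in C4BPD and 3853 ± 196 in DMSO (SD, n = 5 each). Cox4i2, its hypoxia-induced paralogue, averaged 178 ± 13.5 in C4BP, 187 ± 7.16 in IAPP, 185 ± 12.1 in C4BPD and 182 ± 9.38 in DMSO. Neither passed, with differences in IAPP against DMSO of -0.02 for Cox4i1 and 0.04 for Cox4i2.

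Cox5a, a core nuclear subunit, averaged 7746 ± 341 in C4BP, 7607 ± 256 in IAPP, 7613 ± 309.7 in C4BPD and 7739.9 ± 543 in DMSO (SD, n = 5 each). Cox6a1, the widely expressed form of subunit VIa, averaged 10637 ± 562 in C4BP, 10359 ± 513 in IAPP, 10329 ± 276 in C4BPD and 10576 ± 374 in DMSO, and Cox6a2, its heart and muscle form, averaged 137 ± 14.1 in C4BP, 134 ± 10.4 in IAPP, 138 ± 10.7 in C4BPD and 139.5 ± 7.20 in DMSO. None of these differed from DMSO by an amount that passed the test. Cox6b1, the common form of subunit VIb, had the largest difference between IAPP and DMSO among the 9 canonical complex IV subunits, at -0.10 (95% interval -0.22 to 0.01, limma adjusted p = 0.464). Its lowest, median and highest intensities were 2350.4, 2540.0 and 2586 in C4BP, 2303, 2425 and 2549.7 in IAPP, 2221, 2545 and 2833 in C4BPD and 2520.4, 2604 and 2743 in DMSO. The groups overlapped, and its testis form Cox6b2 averaged 134 ± 8.63 in C4BP, 139.7 ± 6.75 in IAPP, 136 ± 9.78 in C4BPD and 135 ± 9.44 in DMSO.

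Cox8a, the ubiquitous form of subunit VIII, averaged 10153 ± 343 in C4BP, 10028 ± 171 in IAPP, 9970.0 ± 187 in C4BPD and 10226 ± 318 in DMSO (SD, n = 5 each). Its heart and muscle form Cox8b had lowest, median and highest intensities of 129.7, 157 and 198 in C4BP, 145, 159 and 172 in IAPP, 136, 148 and 155 in C4BPD and 144, 156 and 185 in DMSO. The testis form Cox8c averaged 83.4 ± 7.81 in C4BP, 82.4 ± 8.86 in IAPP, 78.9 ± 6.04 in C4BPD and 78.6 ± 6.55 in DMSO. None of the 3 passed in any comparison, with differences in IAPP against DMSO of -0.03, -0.02 and 0.07. Cox7a2l, which helps join complexes III and IV into supercomplexes, averaged 2469 ± 106 in C4BP, 2505 ± 116 in IAPP, 2532 ± 129 in C4BPD and 2552 ± 50.1 in DMSO and differed by -0.03 in IAPP against DMSO. Cox7a1 and Cox7a2 had no probe set with a single symbol and were not analysed here.

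In complex V, the ATP synthase, 0 of 13 canonical subunits passed in any of the 5 comparisons by limma. Atp5po, the stalk protein that confers oligomycin sensitivity, had intensities of 2017, 1967, 1719.5, 1973 and 1856 in C4BP and 1728, 1617, 1692, 1692 and 1789 in IAPP. It had 1848, 1794, 1633, 1839 and 1669.9 in C4BPD and 1839, 1761, 1798, 1764 and 1707 in DMSO. The third C4BP array lay within the IAPP range and the other 4 C4BP arrays lay above it.

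Atp5po had the largest difference of any canonical subunit in C4BP against IAPP, at 0.16 (95% interval 0.06 to 0.26, unadjusted p = 0.0029 and adjusted p = 0.168 by limma), and did not pass. Its interaction of 0.18 (unadjusted p = 0.0163 and adjusted p = 1 by limma) was the 1 among the members with an unadjusted p under 0.05. Atp5mc1, which encodes the proton-carrying c subunit and was named after its values were seen, had intensities of 6214, 5597, 5679, 5870.2 and 5689 in C4BP and 6073, 5685, 6311, 5581 and 5706 in IAPP. It had 5368, 5378, 5423, 5187 and 5149 in C4BPD and 5873, 5613, 5754, 5508 and 5922 in DMSO. All its C4BPD arrays lay below all its C4BP and all its DMSO arrays, where 3.73% and 3.82% of all genes had no overlap in these comparisons. C4BP exceeded C4BPD by 0.13 (95% interval 0.05 to 0.22, unadjusted p = 0.004 and adjusted p = 0.105 by limma). This did not pass in this model and passed with the intensity-dependent prior and with a replicate block. C4BPD differed from DMSO by -0.11 (-0.20 to -0.03, unadjusted p = 0.0112 and adjusted p = 0.208 by limma) and did not pass.

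Atp5f1a, the alpha subunit of the catalytic head, averaged 6729.8 ± 159.8 in C4BP, 6641 ± 88.2 in IAPP, 6875 ± 176 in C4BPD and 6986 ± 281 in DMSO (SD, n = 5 each). Its difference in IAPP against DMSO was -0.07 (95% interval -0.14 to -0.00, limma adjusted p = 0.394). Atp5f1b, the beta subunit with the catalytic sites, averaged 10541 ± 321 in C4BP, 10466 ± 135 in IAPP, 10339 ± 360.1 in C4BPD and 10314 ± 227 in DMSO and differed by 0.02. Atp5pd, a peripheral stalk subunit, differed by -0.14 in C4BP against DMSO (-0.28 to 0.01, limma adjusted p = 0.345). Atp5mf, a membrane subunit, differed by 0.09 in C4BPD against DMSO (-0.13 to 0.31), with the first C4BPD array above all the others. Atp5if1, the inhibitor that blocks ATP hydrolysis when the gradient collapses, was named after its values were seen and differed by -0.10 in IAPP against DMSO (limma adjusted p = 0.26).

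Across the 66 canonical subunits the differences were small as well as below the threshold. Their folds ran from 0.926 to 1.07 in IAPP against DMSO, from 0.925 to 1.06 in C4BPD against DMSO and from 0.907 to 1.07 in C4BP against DMSO. The 95% interval lay within 1.2-fold for 63 subunits (95.5%) in IAPP against DMSO, where 78.7% of all genes did so. In C4BPD against DMSO it was 64 (97%, all genes 76.4%), and in C4BP against DMSO 61 (92.4%, all genes 75.5%). The subunits outside 1.2-fold in 1 or more of these were Ndufa2, Ndufb3, Uqcrfs1, Atp5mf, Atp5mg and Atp5pd, of which Ndufa2 and Atp5mg were named after their values were seen. The median residual SD of the 66 subunits was 0.0751 on the log2 scale, where that of all genes was 0.102. All genes include dim ones, and the narrow intervals were not particular to the subunits. Of 72 mitochondrial ribosome genes, 68 lay within 1.2-fold in IAPP, 68 in C4BPD and 71 in C4BP against DMSO. Their median residual SD was 0.0754.

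**Figure D3:**
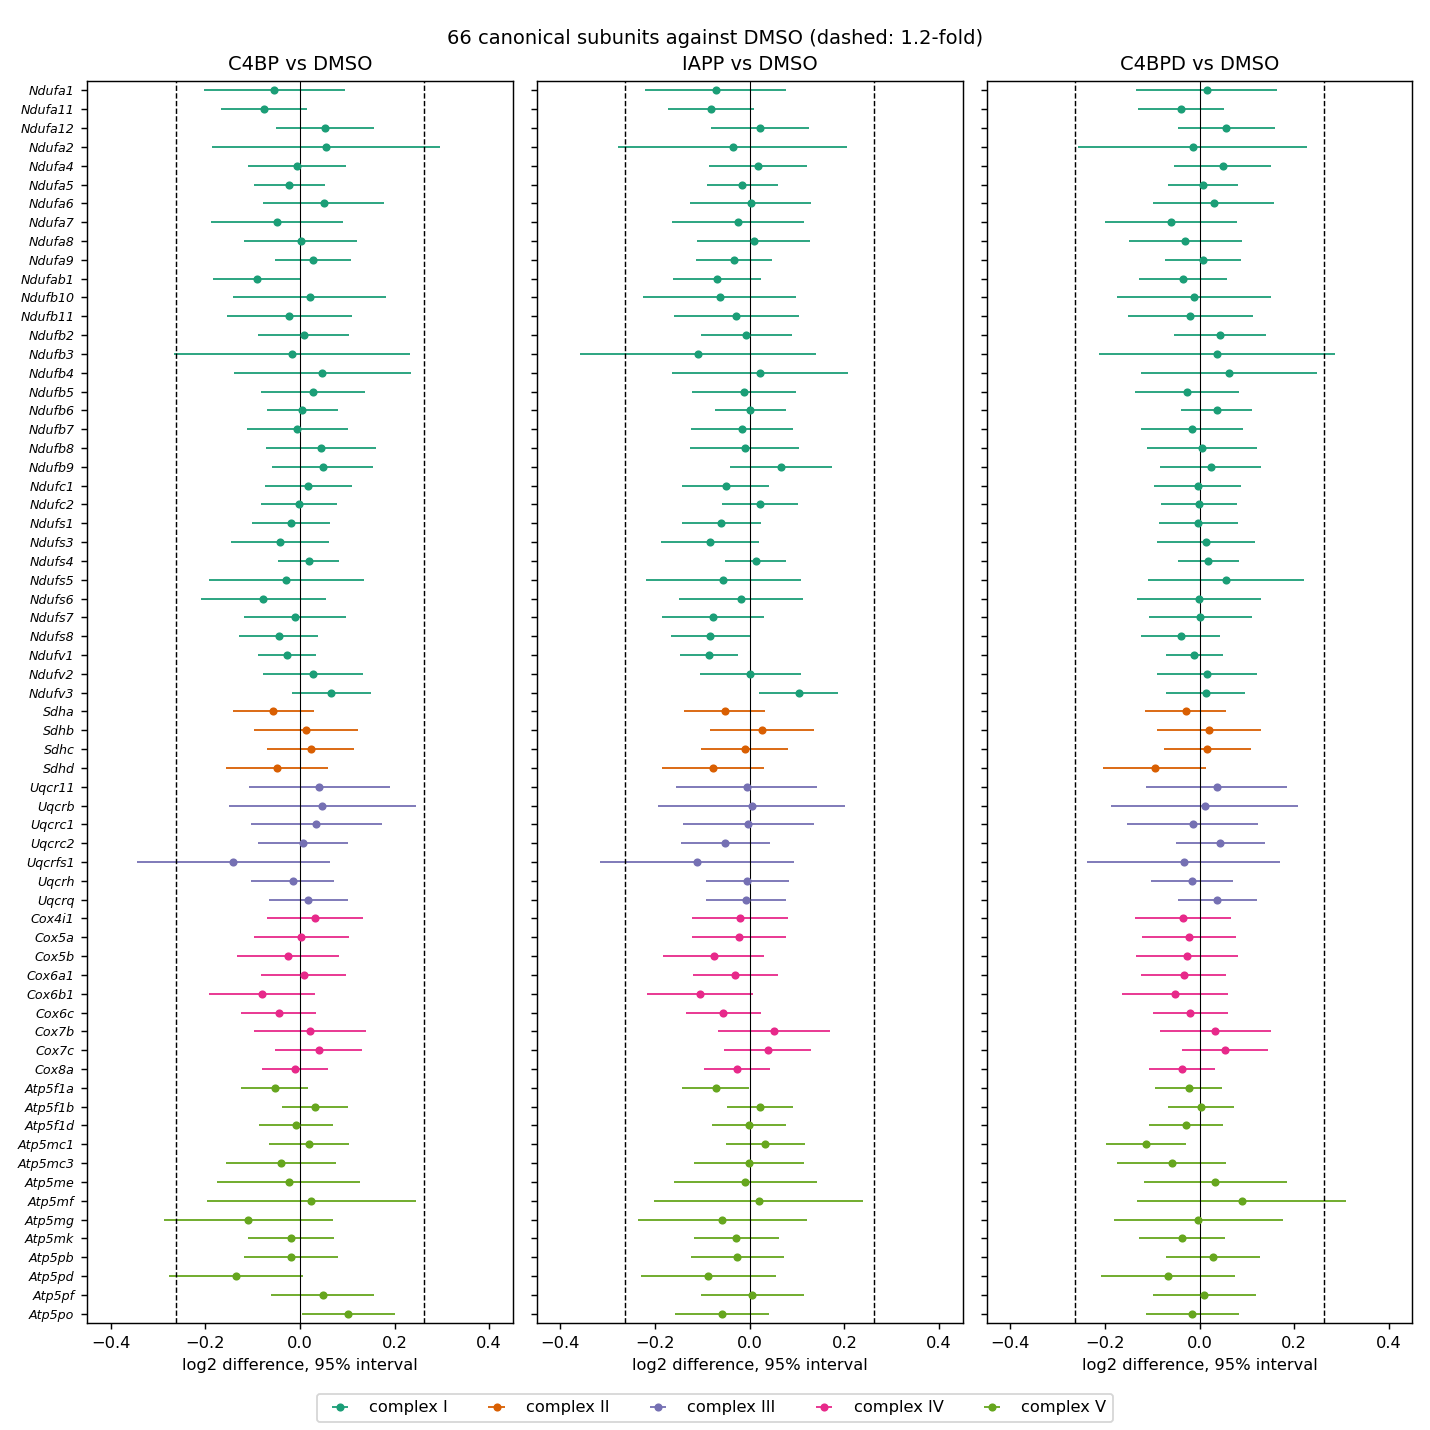
Log2 difference (horizontal axes) with its 95% interval for each of the 66 canonical subunits (vertical axis, ordered and coloured by complex) in C4BP, IAPP and C4BPD against DMSO. The dashed lines mark 1.2-fold, and 61, 63 and 64 intervals lie between them.

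In IAPP against DMSO 19 subunits had a positive and 47 a negative difference, with a median of -0.02, where the median of all genes was 0.00. In C4BP against IAPP 46 were positive and 20 negative, with a median of 0.02, where that of all genes was 0.00. Subunits are not independent of each other, and these comparisons share the IAPP arrays. By array, the median deviation of the 66 subunits from their means over 20 arrays ran from -0.06 to 0.04 in C4BP, -0.05 to 0.01 in IAPP, -0.03 to 0.04 in C4BPD and -0.05 to 0.06 in DMSO. The groups overlapped, and arrays of a group differed by more than the medians between groups. Part of this spread was shared by equal replicate numbers. Replicate 5 had the lowest subunit median in C4BP, C4BPD and DMSO, while in IAPP replicate 4 had it.

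**Figure D4:**
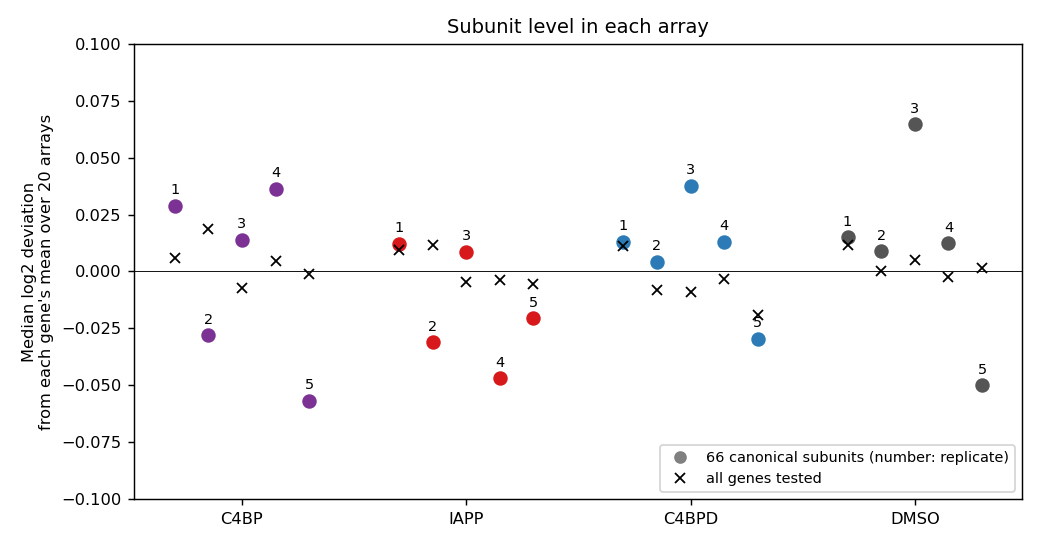
Median log2 deviation from each gene's mean over 20 arrays (vertical axis), for the 66 canonical subunits (coloured points, numbered by replicate) and for all 18166 genes (crosses), by group (horizontal axis). Subunit medians overlap between the groups, with the highest in the third DMSO array and the lowest in the fifth C4BP array.

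The 16 copies and pseudogenes, of which RefSeq annotates 5 as pseudogenes and 10 as protein coding, could share signal with their parent genes. None passed by limma, and their median residual SD was 0.173. The copy Ndufb4l3 averaged 232 ± 72.1 in C4BP, 239.9 ± 36.8 in IAPP, 257 ± 34.0 in C4BPD and 212 ± 40.5 in DMSO (SD, n = 5 each), and its difference of 0.29 in C4BPD against DMSO had a limma adjusted p of 0.552. Ndufa13-ps1 and Atp5mgl1 differed by -0.18 and -0.17 in the same comparison (limma adjusted p = 0.329 and 0.332). Atp5hl1 differed by 0.10 in C4BP against IAPP (limma adjusted p = 0.879).

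Other genes of respiration are read against the shares of all genes that passed, 3.38% in IAPP against DMSO, 5.96% in C4BP against DMSO and 2.37% in C4BP against C4BPD. In lists this short a single gene can lift a share above these. None of 13 complex I assembly factors passed by limma in any of the 5 comparisons, and of 25 factors for complexes II to V only Sdhaf1 and Sdhaf3 did. Of 8 measured subunits and electron carriers outside the symbol prefixes 1 passed. This was Etfb, which brings electrons from fatty acid oxidation towards ubiquinone and was higher in C4BP than in DMSO by 0.15 (95% interval 0.07 to 0.24, limma adjusted p = 0.0248). Of 11 ubiquinone synthesis genes, 1 passed in IAPP against DMSO, 2 in C4BP against DMSO and 3 (Coq7, Coq8a and Coq10b) by the F statistic, where 7.85% of all genes passed. In IAPP against DMSO 5 of the 11 had an unadjusted p under 0.05, against 12.3% of all genes. Coq8a was lower in IAPP than in DMSO, at -0.31 (-0.46 to -0.15, limma adjusted p = 0.0237). In C4BP against DMSO, Coq3, a methyltransferase of that pathway, was higher by 0.24 and Coq10b, a ubiquinone-binding protein, was lower at -0.27 (limma adjusted p = 0.0192 and 0.0146). The mitochondrially encoded COX1 and COX2 did not pass in any of the 5 comparisons.

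Of 21 genes of pyruvate oxidation and the tricarboxylic acid cycle, 2 passed, both in C4BP against DMSO. Ogdh, a subunit of 2-oxoglutarate dehydrogenase, was higher by 0.19 and Pdhb, a subunit of pyruvate dehydrogenase, was lower at -0.16 (limma adjusted p = 0.0111 and 0.0158). Of 14 regulators of mitochondrial biogenesis, 1 passed in IAPP against DMSO and 1 in C4BP against DMSO. Ppargc1a, a coactivator that raises respiratory chain genes in many tissues, was lower in IAPP than in DMSO at -0.31 (95% interval -0.47 to -0.15, limma adjusted p = 0.028). Twnk, the mitochondrial DNA helicase, was higher in C4BP than in DMSO by 0.18 (limma adjusted p = 0.0197).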

How the data were processed

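Intensities were deposited as 1 table of 36685 probe sets on 20 arrays. The authors' intensity values were made with Affymetrix Expression Console, per the submitters' processing notes. Neither its version nor the normalization algorithm is stated in the labels or the table read here. The values are array intensities, and the number of arrays limits precision.

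Probe sets were named by GEO's platform annotation: 18511 carried 1 symbol, 575 several, 17409 none, and 190 were controls. The brightest probe set with 1 symbol stood for each of 18166 genes. The deposited intensities were set to log2 and tested with limma 3.58.1 in R 4.3.3 (sequences and figures with Python 3.11.15), by group means of all 20 arrays. The members and gene lists were chosen with earlier results of these data known. Members were named if they passed or belonged to a fixed set of core subunits and isoforms. Also named were the 2 largest differences in either direction of a comparison, among members above the median of all probe sets only. Others are marked. The fit was tested on simulated data.

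Equal replicate numbers correlated over 0.1 in 2 to 4 of 5 pairs by comparison, and the main model did not treat arrays as paired. This does not show that the replicate number had no effect. Uqcrc1, for example, was highest in replicate 1 of every group, at 2472 in C4BP, 2249 in IAPP, 2437 in C4BPD and 2427 in DMSO. The intervals and residual SDs of the main model include such shared variation, and a replicate block raised the counts of all genes past the threshold. Alternatives covered centring, array weights, prior, dim genes, grouping, compared groups alone, a replicate block and left-out arrays. Promoters are from the RefSeq table, build GRCr8, matched for 77 of 94 members.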

Additional observations from a re-analysis of the deposited data

Results flagged for a closer look

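Of 124 sets of 5 arrays examined (31 named genes in 4 groups), 7 held an array whose gap to its nearest neighbour took over 0.71 of the set's range, where chance gives about 5%. The first C4BPD array had an Atp5mf intensity of 2655.79, with the other 4 at 1730.48 to 1925.63, and a Cox7a2l intensity of 2758.13, with the other 4 at 2433.77 to 2503.58. For Ndufv1 the fifth C4BP array had 4483.66, with the other 4 at 4619.4 to 4649.25, and the fifth IAPP array had 4496.24, with the other 4 at 4394.09 to 4421.44. Ndufs1 had 1695.36 in the fourth IAPP array, with the other 4 at 1807.53 to 1847. Cox4i2 had 164.028 in the fifth C4BPD array, with the other 4 at 187.271 to 195.759. Cox8c had 67.1612 in the fourth DMSO array, with the other 4 at 79.3825 to 82.8985.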

How the results depend on the processing

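Grouping by the treatment field left 0 members past the threshold in IAPP against DMSO, C4BP against DMSO, C4BP against C4BPD and the F test, as well as 0 of all genes in each comparison. Under it Sdhaf1 was at -0.102 and Sdhaf3 at -0.0313 in IAPP against DMSO, Sdhaf1 at -0.163 in C4BP against DMSO, and Sdhaf1 at -0.083 and Sdhaf3 at -0.013 in C4BP against C4BPD. Centring each array on its median left 1 member, Sdhaf1, in C4BP against C4BPD. Fitting the compared groups alone left 1 member in IAPP against DMSO and 0 in C4BP against C4BPD. With single arrays left out the member counts ran from 1 to 2 in IAPP against DMSO, 0 to 2 in C4BP against C4BPD and 2 to 3 in C4BP against DMSO, and with a replicate number left out of every group from 1 to 2, 0 to 1 and 1 to 3. With a replicate block, 3 members passed in IAPP against DMSO (also Ndufv1) and 3 in C4BP against C4BPD (also Atp5mc1), and all genes past the threshold numbered 1133, 797, 1884, 352 and 958 in IAPP against DMSO, C4BPD against DMSO, C4BP against DMSO, C4BP against IAPP and C4BP against C4BPD, instead of 614, 351, 1082, 110 and 431. Leaving out 1 array moved the count for all genes by over 1.5 times in IAPP against DMSO without IAPP replicate 4 (405), in C4BPD against DMSO without C4BPD replicate 2 or 5 or DMSO replicate 5 (217 to 233), and in C4BP against IAPP without C4BP replicate 4 or 5 or IAPP replicate 2, 3 or 4 (58 to 73). For the interaction single arrays gave 3 to 10 instead of 9. Leaving out a replicate number of every group gave 235 to 542 in IAPP against DMSO, 151 to 299 in C4BPD against DMSO, 615 to 1059 in C4BP against DMSO, 18 to 66 in C4BP against IAPP and 200 to 395 in C4BP against C4BPD. These counts were all lower than with all arrays. Leaving out single arrays moved counts either way. It gave 386 in C4BPD against DMSO without C4BPD replicate 1 and 522 in C4BP against C4BPD without C4BP replicate 3. Among the other settings the count for all genes was 221 (centred) and 644 (array weights) in C4BPD against DMSO, and 70 (centred) and 201 (dim genes left out) in C4BP against IAPP. With the compared groups alone it was 208 in C4BPD against DMSO, 663 in C4BP against DMSO, 33 in C4BP against IAPP and 223 in C4BP against C4BPD. The cause of these changes was not tested. Genes near background, such as the tissue-specific isoforms, are limited by their signal.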

Other observations

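Of 15 mitochondrial carriers and uncoupling proteins, 1 passed in each of C4BP against DMSO, IAPP against DMSO and C4BP against C4BPD, where 5.96%, 3.38% and 2.37% of all genes passed. This was Slc25a20 in all 3, and the comparisons share arrays. Slc25a20, which carries acylcarnitines into mitochondria, was higher in C4BP than in DMSO by 0.39 (95% interval 0.30 to 0.48, limma adjusted p = 7.56e-06). It was also higher in IAPP than in DMSO by 0.37 (limma adjusted p = 3.23e-05) and in C4BP than in C4BPD by 0.37 (limma adjusted p = 4.1e-05). Of 72 mitochondrial ribosome genes, 1 passed in these comparisons, Mrpl52, which was higher in C4BP than in DMSO by 0.14 (limma adjusted p = 0.0363). Of 202 genes with symbols of the cytosolic ribosome, 3 passed in C4BP against DMSO, 2 in IAPP against DMSO and 1 in C4BP against C4BPD. They were the kinases Rps6ka2 and Rps6ka5, which share the symbol prefix and are not ribosomal proteins, and Rps18l2, a copy of a ribosomal protein gene that was higher in C4BP than in DMSO by 0.32 (limma adjusted p = 0.0345).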
